A study of Mus musculus with 8 samples.

Results

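The genes described here are 8 receptors and junction proteins of blood and lymphatic vessels: Flt1, Kdr, Flt4, Tek, Tie1, Cdh5, Pecam1 and Eng. They were taken by symbol from a deposited table of 20586 rows, 1 row for the 3' UTR of an Ensembl transcript, which holds 19889 symbols in all. Each of the 8 genes had 1 row. The genes were selected on their role in vessels and with earlier results of these data known, among them the deposited interaction values of Flt1, Kdr and Cdh5, so the values below describe them.

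The study's question was which mRNAs are bound by CPEB2 in the mammary epithelium of the mouse. Immunoprecipitates made with anti-CPEB2 (IP) and the lysates they came from (Input) were sequenced from Cpeb2 knockout (KO) and wild-type (WT) cells of the strain C57BL/6J 129, untreated and used freshly isolated. The 8 libraries formed the groups KO IP, KO Input, WT IP and WT Input, with 2 libraries each, from RIP experiments 2 and 3. The sample titles number either genotype 3 in RIP experiment 2 and 4 in RIP experiment 3. What this number counts is not given in the titles, and it cannot be told apart from the RIP experiment. Glands were digested with enzymes, red cells were lysed, and an epithelium-enriched fraction was kept, which leaves other cells of the gland in an unstated amount. The labels give neither the age of the mice, nor the deleted part of Cpeb2 and the cells in which it was deleted, nor whether samples came from single animals or pools. Poly(A) RNA was selected for Input only, so an IP to Input difference also holds the difference between unselected and selected RNA.

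CPEB2 is an RNA-binding protein that recognises cytoplasmic polyadenylation elements in 3' UTRs and acts on poly(A) tail length and translation. Endothelial cells sense vascular growth factors of the VEGF family through the tyrosine kinase receptors that Flt1, Kdr and Flt4 encode, and angiopoietins through the receptor encoded by Tek. They are held together by the cadherin encoded by Cdh5 and the adhesion molecule encoded by Pecam1. In the mammary gland such cells line the vessels of the fat pad around the epithelial ducts.

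By the authors' test the 3' UTR rows of Flt1 and Cdh5 were recovered over Input less in KO than in WT. The other 6 genes had no adjusted p under 0.05. Under the alternative settings given below, both results were lost when the median of all rows given an adjusted p, or the 3' UTR length trend, was subtracted. With every row that has a p-value in the adjustment, Cdh5 was lost and Flt1 was kept. The authors' value in KO IP was below that in WT IP for all 8 genes, by log2 differences (KO minus WT) of -1.30 to -0.22 with a median of -0.85. Over the 5327 rows for which the authors gave an adjusted p, called tested rows here, 59.7% were lower in KO IP and the median was -0.13. Of the 8 genes, 3 (Flt1, Tek and Cdh5) were lower in KO IP by at least 1 on the log2 scale, against 6.78% of tested rows. The genes were chosen with the interactions of Flt1, Kdr and Cdh5 known, and the IP difference is part of the interaction. Nothing is therefore read from these IP counts and medians. In Input the KO minus WT difference was above 0 for 4 genes and below 0 for 4, with a median of 0.06, against 0.09 over all tested rows. None of the 8 genes exceeded WT by 1 in KO Input, as 0.188% of tested rows did.

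**Figure D1:**
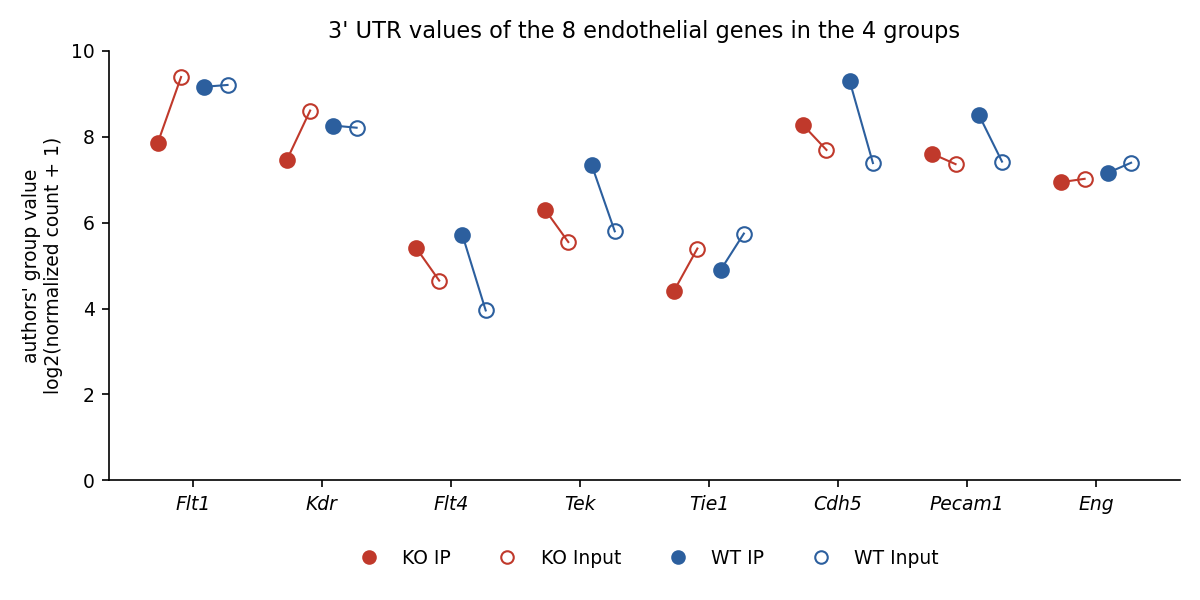
The authors' group values, log2(normalized count + 1), are plotted for each gene, KO in red and WT in blue, with IP as filled and Input as open points and a line joining each pair. The filled red point lies below the filled blue point for all 8 genes, and the IP lies above Input in both genotypes for Flt4, Tek, Cdh5 and Pecam1.

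All group values are the authors' and give 1 value for 2 libraries, so no spread between libraries stands beside them. The error comes from the authors' interaction, which takes IP minus Input on the log2 scale in WT and subtracts the same quantity of KO, with its standard error (SE) and Wald test. A positive interaction means a lower recovery over Input in KO. Genes are said to pass here at an adjusted p of 0.05, which is stricter than the 0.1 at which the authors marked rows. A positive interaction at an adjusted p of 0.05 was listed by the authors' deposited table for 120 of 5327 tested rows, 2.25% (Wald test). In the other direction 0 did, with 58 rows at an unadjusted p under 0.05 against 668 positive ones (Wald test, authors' deposited table). Of the 8 genes 2 were among the 120, and since the genes were grouped with this contrast known, nothing is read from that count.

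Flt1 encodes the high-affinity VEGF receptor VEGFR1, which can hold ligand away from the main signalling receptor. Its row lies inside the gene, 73.6 kb before the 3' end, and not at the end itself. Its group values were 7.86 in KO IP and 9.39 in KO Input, against 9.16 in WT IP and 9.20 in WT Input. On the scale of normalized counts these are 231.5 and 669 in KO, against 572 and 589 in WT. The KO IP was thus the low value among 4, with the other 3 within 0.23 of each other on the log2 scale. IP minus Input was -1.53 in KO and -0.04 in WT, so in neither genotype was Flt1 above Input. The authors' deposited table gave an interaction of 1.49 ± 0.37 (SE; Wald test, adjusted p = 0.00861). This is 2.82-fold, with a 95% interval from 1.71 to 4.65.

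Kdr encodes VEGFR2, the receptor that carries most VEGF signalling in endothelium. The group values of Kdr were 7.46 in KO IP and 8.61 in KO Input, against 8.26 in WT IP and 8.21 in WT Input. As for Flt1, the KO IP was the lowest of the 4 and the WT pair was level, with IP minus Input at -1.15 in KO and 0.05 in WT. Part of its interaction lay in Input, where KO exceeded WT by 0.40. For its interaction the authors' deposited table gave 1.24 ± 0.48 (SE; Wald test, adjusted p = 0.178), which did not pass. Among tested rows 17% lay at least 1 below Input in KO, and of the 8 genes these 2, Flt1 and Kdr, did so.

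Flt4 encodes VEGFR3, the receptor of lymphatic endothelium for VEGF-C and VEGF-D. Its group values were the lowest of the VEGF receptors, with 5.42 in KO IP and 4.65 in KO Input, against 5.71 in WT IP and 3.96 in WT Input. Both genotypes were above Input, by 0.77 in KO and 1.75 in WT. Most of the genotype difference lay in Input, where KO exceeded WT by 0.69, while the IP differed by -0.29. Its mean normalized count of 33.2 was below the level of 42.9 from which the authors adjusted p. The authors' deposited table gave an interaction of 1.04 ± 0.69 (SE; Wald test, unadjusted p = 0.129), with a 95% interval on the log2 scale from -0.30 to 2.38.

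Tek encodes TIE2, the receptor of the angiopoietins. Tek had group values of 6.30 in KO IP and 5.55 in KO Input, against 7.35 in WT IP and 5.80 in WT Input. IP was above Input by 0.75 in KO and by 1.55 in WT, and the WT IP was the high value among the 4. The KO IP lay 1.05 below the WT IP, the next largest such difference after Flt1, but KO Input was also lower, by 0.25. For Tek the authors' deposited table gave an interaction of 0.84 ± 0.52 (SE; Wald test, adjusted p = 0.503).

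Tie1 encodes a receptor that has no known high-affinity ligand and acts beside TIE2. Tie1 had group values of 4.42 in KO IP and 5.40 in KO Input, against 4.90 in WT IP and 5.75 in WT Input. Both IPs were below their Inputs, with IP minus Input at -0.98 in KO and -0.85 in WT, unlike Tek, whose IPs were above Input in both genotypes. Its row is the shortest of the 8, at 402 bases, and had a mean normalized count of 36.0 and no adjusted p. Its interaction was 0.17 ± 0.70 (SE; Wald test, unadjusted p = 0.804, authors' deposited table), and its 95% interval from -1.19 to 1.54 holds the point estimate of every one of the 8 genes.

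Cdh5 encodes VE-cadherin, the adhesion molecule of endothelial adherens junctions. Its group values were 8.27 in KO IP and 7.69 in KO Input, against 9.29 in WT IP and 7.39 in WT Input. On the scale of normalized counts these are 307 and 206 in KO, against 626 and 166 in WT. Both IPs were above their Inputs, by 0.57 in KO and 1.91 in WT, the highest WT recovery of the 8 genes and at percentile 91.9 of tested rows. The KO IP was 1.03 lower than the WT IP and KO Input 0.30 higher than WT Input. For Cdh5 the authors' deposited table gave an interaction of 1.32 ± 0.38 (SE; Wald test, adjusted p = 0.0347). This is 2.50-fold, with a 95% interval from 1.48 to 4.21.

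Pecam1 encodes CD31, an adhesion molecule at endothelial contacts that platelets and leukocytes also carry. Group values of Pecam1 were 7.60 in KO IP and 7.36 in KO Input, against 8.51 in WT IP and 7.42 in WT Input. The Inputs differed by only -0.06, so that nearly all of the genotype difference, -0.91, lay in the IP. IP minus Input was 0.24 in KO and 1.09 in WT. For Pecam1 the authors' deposited table gave an interaction of 0.86 ± 0.39 (SE; Wald test, adjusted p = 0.284, unadjusted p = 0.0257), which did not pass.

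Eng encodes endoglin, a co-receptor for BMP9 and related ligands of the TGF-beta family. Its group values were 6.94 in KO IP and 7.02 in KO Input, against 7.16 in WT IP and 7.39 in WT Input. It was the 1 gene of the 8 with a negative interaction, -0.20 ± 0.50 in the authors' deposited table (SE; Wald test, adjusted p = 0.904). IP minus Input was -0.08 in KO and -0.23 in WT. KO Input was 0.37 lower than WT Input, which put Eng at percentile 3.21 of tested rows for that difference, while Kdr stood at percentile 90.7. The last 61 bases of the Eng interval overlap the 3' UTR row of Fpgs on the opposite strand, and reads of that stretch are uncertain for Eng, since whether counting used strand is not known here.

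**Figure D2:**
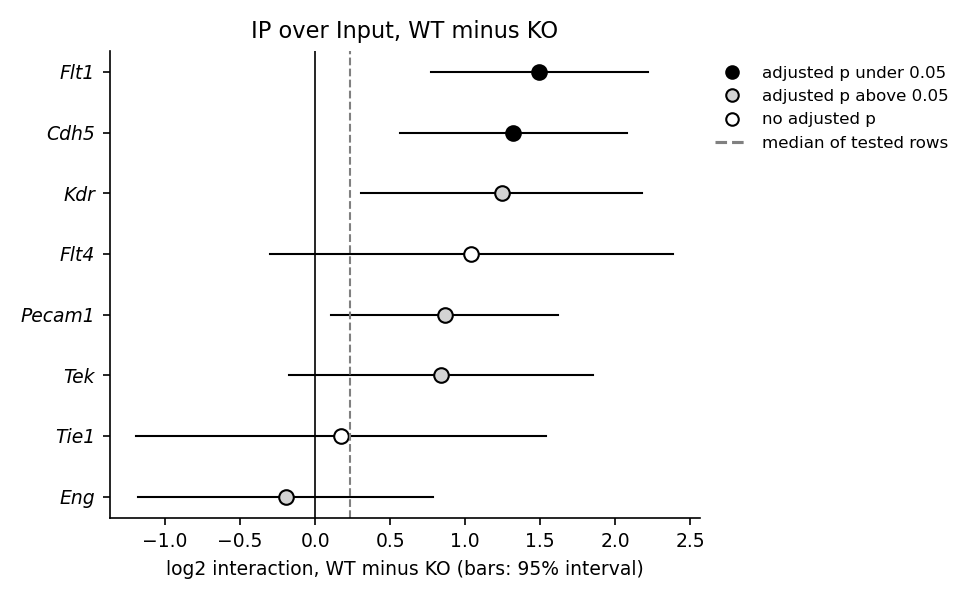
The log2 interaction of each gene, WT minus KO, is plotted with its 95% interval (estimate plus and minus 1.96 SE), with a solid line at 0 and a dashed line at the median of tested rows, 0.23. Flt1 and Cdh5 are the filled points, and the intervals of Flt1, Cdh5, Kdr and Pecam1 lie above 0.

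The median interaction was 0.95 over the 8 genes and 1.05 over the 6 tested ones, against 0.23 over all tested rows, of which 65.1% were above 0. The genes were chosen with the interactions of Flt1, Kdr and Cdh5 known, so these values only describe them. The 6 tested genes are those that passed the authors' filter on mean count, which Flt4 and Tie1 did not. The order of the genes was not resolved, since the 95% intervals overlapped in all 28 pairs. After subtraction of that median from every row, the Wald test was recomputed and gave 1.26 for Flt1 (adjusted p = 0.0816) and 1.09 for Cdh5 (adjusted p = 0.210), neither of which passed. With every row that has a p-value in the adjustment, Cdh5 did not pass either (recomputed adjusted p = 0.109), while Flt1 did (recomputed adjusted p = 0.0270).

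By recovery over Input the genes fell into different positions. Cdh5, Flt4, Tek and Pecam1 were at least 1 above Input in WT, as were 28.1% of tested rows, and all 4 were also above Input in KO, by 0.24 to 0.77. Flt1 and Kdr in WT were level with Input, and in KO lay below it. Eng and Tie1 were below Input in both genotypes. Over tested rows the median IP minus Input was 0.15 in KO and 0.29 in WT. The Euclidean distance between the 4 group values of 2 genes, each centred on its own mean, was 0.45 between Flt1 and Kdr and 0.40 between Tek and Cdh5, but 2.04 between Flt1 and Cdh5 (log2 units, 4 groups). The 2 genes that passed the test were therefore the most unlike pair of the 6 tested genes in this measure.

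**Figure D3:**
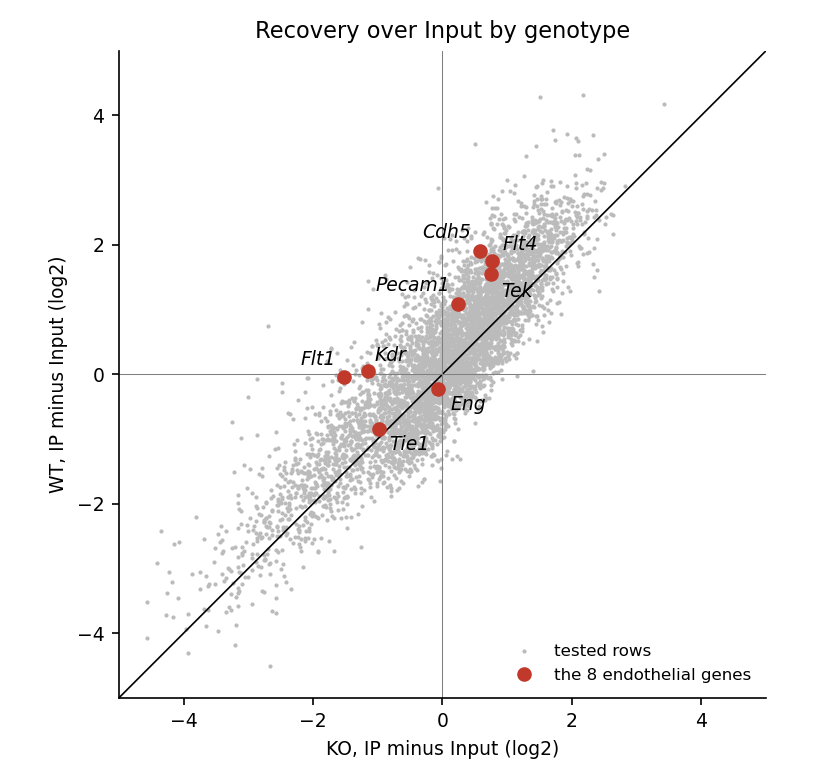
IP minus Input on the log2 scale is plotted for KO (x axis) against WT (y axis), with tested rows in grey, the 8 genes in red and the line of equal recovery in black. Flt1, Kdr, Cdh5, Pecam1, Tek and Flt4 lie above the line, Tie1 lies close to it, and Eng lies just below it.

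The rows sit at different places of their genes. For 7 of the 8 genes the row ended within 4 bases of the 3' end of the RefSeq gene (GRCm38.p6, the assembly that mm10 names). The Flt1 row, at chromosome 5, 147635159 to 147639129 (mm10, minus strand, transcript ENSMUST00000110529), ended 73.6 kb before the 3' end of the Flt1 gene. FLT1 is known to be made also as a shorter, secreted form whose mRNA ends inside an intron of the gene. The table does not say whether the row belongs to that mRNA, and it holds no second Flt1 row, so the end of the longest Flt1 transcript was not measured here. At such a place reads of a shorter mRNA and of unspliced Flt1 RNA cannot be told apart. Of 5035 tested rows that matched a RefSeq gene, 95 (1.89%) ended more than 10 kb before the gene's end, with a median interaction of 0.37, against 0.23 for the others. The Cdh5 row is at chromosome 8, 104142999 to 104144502 (plus strand, ENSMUST00000034339), and the Kdr row at chromosome 5, 75932827 to 75934422 (minus strand, ENSMUST00000113516). The Pecam1 row is at chromosome 11, 106654217 to 106655142, and the Flt4 row on the same chromosome at 49651084 to 49652739. The Tek row is at chromosome 4, 94873999 to 94874976, the Tie1 row on the same chromosome at 118471191 to 118471592, and the Eng row at chromosome 2, 32681387 to 32682669.

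The interaction of tested rows was larger for longer 3' UTRs, with a median of -0.23 in length bin 1 of 5 equal bins (30 to 910 bases) and 0.52 in bin 5 (3291 to 23858 bases). Flt1, with 3971 bases, lay in bin 5, where 4.13% of rows passed the authors' Wald test at 0.05. Kdr, with 1596 bases, lay in bin 3, and Cdh5 (1504 bases), Eng (1283), Tek (978) and Pecam1 (926) in bin 2, where the median interaction was 0.12 and 1.59% passed. The running median of the interaction was 0.50 at the length of Flt1 and 0.20 at that of Cdh5. With it subtracted, Flt1 had 0.99 (adjusted p = 0.299) and Cdh5 1.13 (adjusted p = 0.216) in the recomputed Wald test, and neither passed.

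**Figure D4:**
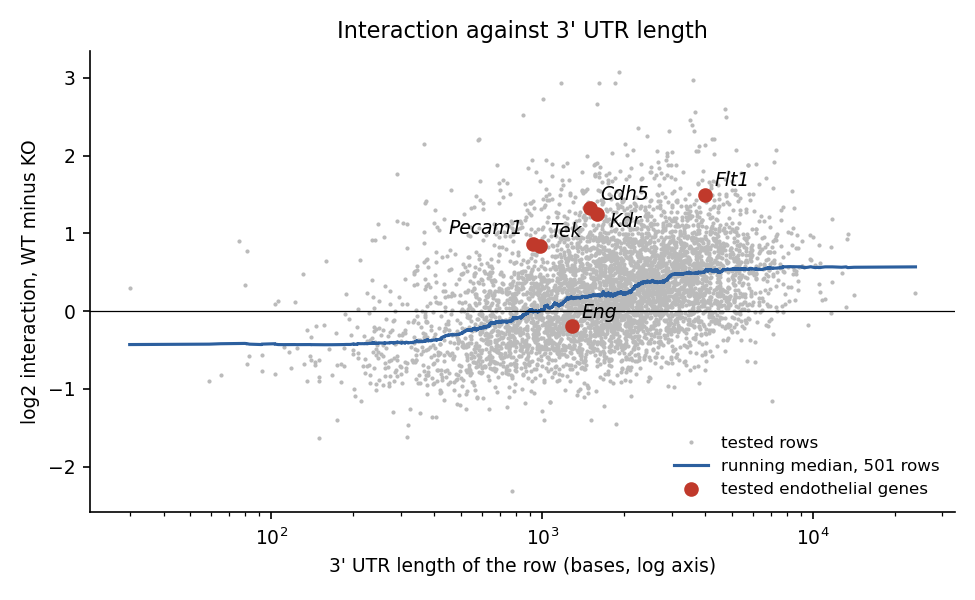
The log2 interaction of each tested row (grey) is plotted against its 3' UTR length on a log axis, with the running median over 501 rows in blue and the 6 tested endothelial genes in red. Flt1, Cdh5, Kdr, Tek and Pecam1 lie above the running median at their length and Eng lies below it.

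Levels between genes were compared per kb of 3' UTR, as the mean normalized count over all libraries divided by row length. Pecam1 had 242 per kb, Cdh5 218, Kdr 187, Flt1 134.5 and Eng 112. Tie1 had 89.6, Tek 87.7 and Flt4 20.0 per kb. Without a spread over libraries neighbours in this order cannot be separated, and Flt4 was the lowest in each of the 4 groups. The order differed between IP and Input. Cdh5 had 204 per kb in KO IP and 137 in KO Input, against 416 in WT IP and 111 in WT Input. Kdr, the highest in both Inputs, had 110 per kb in KO IP and 244 in KO Input, against 191 in WT IP and 185 in WT Input.

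Other markers of blood endothelium had a lower median interaction than the members, which were chosen with the interactions of Flt1, Kdr and Cdh5 known. Of 13 such markers, 9 were tested, 0 passed and the median interaction was 0.21, close to the 0.23 of all tested rows. Clec14a, a C-type lectin of endothelium, had the largest, 1.77 (Wald test, adjusted p = 0.127, authors' deposited table), and Ramp2, a partner of the adrenomedullin receptor, had 1.33 (Wald test, adjusted p = 0.211, authors' deposited table). In the authors' deposited table the tight junction gene Cldn5 had -0.10, the fenestral diaphragm gene Plvap -0.07, the progenitor and vessel marker Cd34 -0.22 and Cd93 0.21. The tested rows of these markers were also shorter, with a median of 992 bases against 1393.5 for the tested members. The difference in interaction between the members and these markers was not tested. Of the lymphatic markers beside Flt4, 3 of 6 were tested. The lymphatic transcription factor gene Prox1 passed with 2.07 ± 0.63 (SE; Wald test, adjusted p = 0.0490, authors' deposited table). The hyaluronan receptor gene Lyve1 had 1.77 (Wald test, adjusted p = 0.0781) and Pdpn -0.58 (Wald test, adjusted p = 0.574) there.

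The cell content of the samples bears on all 8 genes. All 20 markers of blood endothelium had reads in both Inputs, though Emcn and Vwf had mean normalized counts of only 3.67 and 6.23. The 20 markers summed to 3042 normalized counts in KO IP and 4471 in WT IP, and to 3699 in KO Input and 3394 in WT Input. These sums include 7 of the 8 genes, so the lower sum in KO IP is partly that of the selected genes. In IP the KO minus WT difference had a median of -0.09 over the 9 tested markers that are not members. Over the 6 tested members it was -0.97. The median per kb over the 10 epithelial markers was 464 in KO Input and 523 in WT Input, against 107 and 117 over the endothelial markers. The fibroblast markers had 389 and 340, leukocyte markers 18.5 and 14.0, and platelet markers 1.90 and 1.57, with Gp9 at 0 in KO Input. By summed level the order was different, with epithelial markers at 1923 normalized counts in KO Input and 2012 in WT Input, below the endothelial sums, and the 8 fibroblast markers at 3481 and 2982. Epithelial markers were thus present beside endothelial and fibroblast transcripts. The sums cover 20 endothelial, 10 epithelial and 8 fibroblast genes and are not divided by 3' UTR length. They therefore neither rank the cell types nor show an epithelial majority. Leukocyte markers summed to 253 in KO IP and 131 in WT IP and to 293 in KO Input and 211 in WT Input, opposite in direction to the members in IP. Markers of mural cells, which surround vessels, summed to 958 in KO IP and 696 in WT IP, also opposite to the members. In Input the mural markers summed to 1146 in KO and 971 in WT. The leukocyte markers Fcer1g (-0.21) and Cd3e (-0.91) and the mural marker Notch3 (-0.72) were lower in KO IP, as the members were. All other genes of these lists were higher in KO IP. The fibroblast markers summed to 4019 in KO IP and 2812 in WT IP, with all 8 higher in KO IP. The part of these cells in the results was not tested. In such bulk samples fewer cells of a type and less RNA per cell cannot be told apart. The 3' UTR of Cpeb2 itself had 7.43 in KO IP and 5.98 in KO Input, against 9.64 in WT IP and 6.11 in WT Input. Its Inputs were close, while its IP was lower in KO, with an interaction of 2.12 ± 0.45 in the authors' deposited table (SE; Wald test, adjusted p = 0.00119), and in KO the IP was still 1.45 above Input. Since the deleted part of Cpeb2 is not given, whether this row should be lost in KO is not known here.

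The wider vessel pathways were described through 6 lists of 118 names, of which 116 had a row. Of these, 77 had tested rows and 5 passed, all with a lower recovery in KO, beside 2.25% of all tested rows. Of 16 names of ligands and co-receptors of VEGF and the angiopoietins 15 had a row, 10 were tested, 0 passed and the median was 0.17. The co-receptor gene Nrp2 had 1.20 (Wald test, adjusted p = 0.140), Ptprb, a phosphatase that acts on TIE2, 0.92, Nrp1 0.72 and the ligand gene Pgf -0.86 in the authors' deposited table. Of 27 genes that act below the VEGF and TIE receptors 19 were tested, 0 passed and the median was 0.15. In the authors' deposited table the largest by p was the PI3-kinase subunit gene Pik3ca with 1.27 (Wald test, adjusted p = 0.146), followed by Foxo3 with 0.78 and Pik3r1 with 0.72.

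Of 19 genes of the endoglin and BMP9 pathway 9 were tested, 0 passed and the median was 0.37. In the authors' deposited table Smad5, which carries BMP signals to the nucleus, had 1.08 (Wald test, adjusted p = 0.235), the shared mediator Smad4 0.68 and the receptor Acvr2a 0.81. The ligand genes Gdf2 and Bmp10 had no count. Of 25 names listed as partners of endothelial junctions 24 had a row, 19 were tested, 0 passed and the median was 0.25. In the authors' deposited table Ptprj, a receptor phosphatase at junctions, had 1.28 (Wald test, adjusted p = 0.125), the adhesion molecule gene Jam3 1.67, Tjp1, a scaffold of tight junctions, 0.94 and Ctnnd1, the catenin that binds cadherins, 0.72.

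Among the 6 lists the transcription factors of endothelium had the highest median. Of 20 listed 14 were tested, all 14 were above 0, the median was 1.05, and 4 passed (Elk3, Sox18, Mef2c and Prox1). Over all tested rows 65.1% were above 0 and 2.25% passed. The list was chosen with earlier results of these data known, so nothing is read from these counts. For Elk3, an ETS factor, the group values were 6.75 in KO IP and 6.25 in KO Input, against 8.38 in WT IP and 6.18 in WT Input. The authors' deposited table gave Elk3 an interaction of 1.71 ± 0.42 (SE; Wald test, adjusted p = 0.00905). Mef2c, a MADS-box factor, had 6.53 in KO IP and 8.13 in KO Input, against 7.65 in WT IP and 7.70 in WT Input, the same arrangement as Flt1 and Kdr. The authors' deposited table gave Mef2c an interaction of 1.62 ± 0.48 (SE; Wald test, adjusted p = 0.0395). Sox18, a factor of vessel development, had 4.71 in KO IP and 4.69 in KO Input, against 6.94 in WT IP and 4.83 in WT Input. As for Cdh5 its WT IP was the highest value, but unlike Cdh5 its KO IP was level with KO Input. Prox1 had 5.51 in KO IP and 5.21 in KO Input, against 7.14 in WT IP and 4.91 in WT Input. The ETS factors Fli1 (1.74, adjusted p = 0.0530) and Ets1 (1.10, adjusted p = 0.0613) had an adjusted p above 0.05 and below the authors' 0.1 (Wald test, authors' deposited table). After subtraction of the median of all tested rows, 0 of the 14 passed the recomputed Wald test, and after subtraction of the length trend 1 did, Sox18 with 2.53 (adjusted p = 0.0230). As deposited Sox18 had 2.14 (Wald test, adjusted p = 0.0347, authors' deposited table). Its row is short, at 367 bases, where the trend is below 0, so the subtraction raised its interaction. The mean normalized count of Sox18, 49.9, was close to the 42.9 from which the authors adjusted p. With every row that has a p-value in the adjustment, Elk3 passed (recomputed adjusted p = 0.0284) and Sox18, Mef2c and Prox1 did not (0.109, 0.124 and 0.153).

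Of 11 Notch pathway genes of endothelium 6 were tested, 1 passed and the median was 0.85. The ligand gene Jag1 had 7.91 in KO IP and 7.46 in KO Input, against 9.53 in WT IP and 7.42 in WT Input. Its interaction was 1.74 ± 0.45 in the authors' deposited table (SE; Wald test, adjusted p = 0.0148), while the feedback gene Nrarp had 1.54 and Notch1 0.99. Jag1 did not pass once the median of all rows tested was taken off each row, nor with the length trend subtracted (1.53, with a recomputed adjusted p above 0.05), and passed with every row in the adjustment (recomputed adjusted p = 0.0458). Many genes of these lists are also used by epithelial cells, and the table does not separate the sources.

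**Figure D5:**
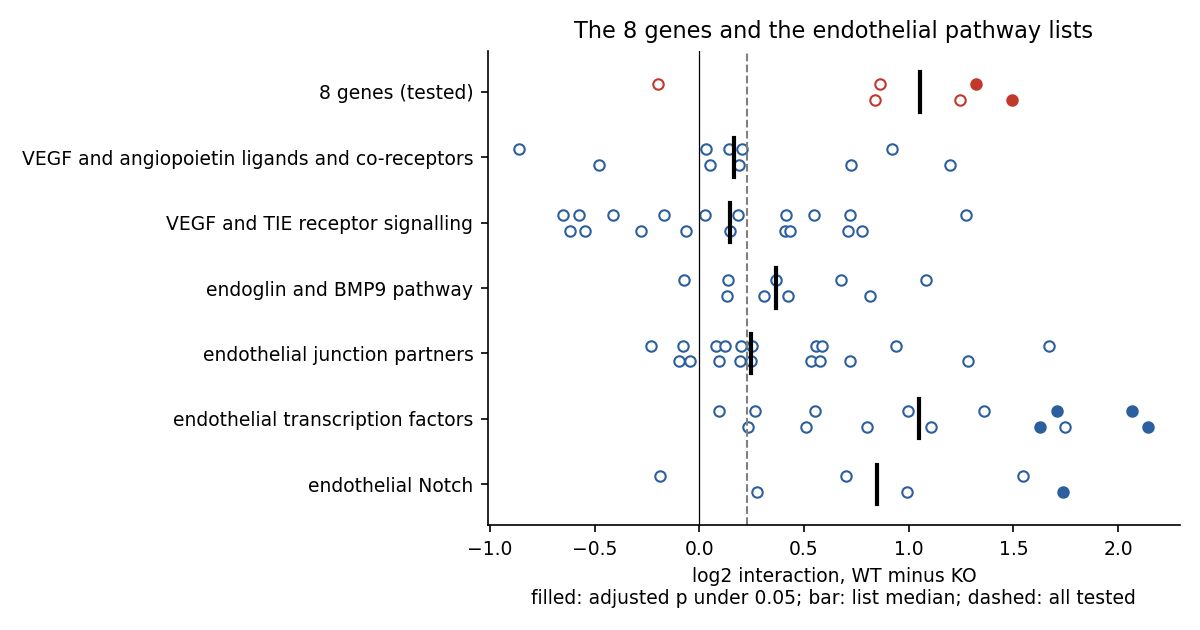
Each point is the log2 interaction, WT minus KO, of a tested gene, in red for the 6 tested members and in blue for the 6 pathway lists, with black bars at the medians and a dashed line at the median of all tested rows, 0.23. The filled points passed the authors' Wald test at an adjusted p of 0.05, and they lie among the members (2), the transcription factors (4) and the Notch genes (1).

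Among the rows whose 4 group values were most like the mean of the 6 tested members, by the same distance over 4 groups and 5116 other tested rows, were Kcnk1 (0.08), Nr3c1 (0.12), Srpk2 (0.12) and Zdhhc8 (0.13). Kcnk1 encodes a potassium channel and Nr3c1 the glucocorticoid receptor. Nearest to Flt1 were Sbds (0.12), Fam101b (0.16) and the fatty acid elongase gene Elovl6 (0.17). Nearest to Cdh5 were the zinc finger factor Sp1 (0.05), the stress-induced gene Ddit4 (0.10) and the galectin gene Lgals8 (0.10). None of the genes named here for their likeness is a marker of endothelium in the lists used here.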

How the data were processed

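RIP-seq of 8 libraries was analysed from 1 deposited table. Per the submitters' processing notes Bowtie 0.12.9, Bowtie2 2.2.2, DESeq2 and mm10 were used. The counting of reads, by strand or not, is a step not given in the sources used here. For each group the authors deposited 1 log2 value, which behaves as log2 of a normalized count plus 1, and a mean normalized count over libraries (a signal that DESeq2 scaled, as the file headers show). The authors' deposited interaction is a log2 fold change with its SE, a Wald score (fold over SE), a p-value, and an adjusted p-value by Benjamini-Hochberg over the 5327 rows whose mean normalized count reached 42.9. Its direction, WT minus KO, was read from a Spearman correlation across tested rows of 0.998 with that difference taken from the 4 group columns.

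The table holds 8 columns of values per library named by sequencing index alone. No label pairs them with samples, so they were not used. Planned fits of counts per library were not run, depth per library is unknown here, and precision rests on the authors' SE. The labels do not say that the samples numbered 3 and 4 were separate animals, so p-values cover only the spread of these libraries, possibly a technical one.

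Computed here in Python 3.11.15 (scipy 1.17.1, pandas 2.3.3, numpy 2.4.6; figures with matplotlib 3.10.9) were group differences, 95% intervals, levels per kb and the alternatives, whose Wald and adjustment steps were tested on simulated data. A gene with several rows was represented by the row with the highest mean count. Members, lists and the naming rule (every member, up to 4 genes per list by p plus those that passed, and the nearest profiles) were chosen with earlier results of these data known. Named beyond that rule, after their values were seen, were the endothelial and lymphatic markers given with values, Fli1 and Ets1. Of 19889 symbols 18734 matched the RefSeq table. One gene that the rule on nearest profiles names is not reported here. No 3' UTR sequence was used.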

Additional observations from a re-analysis of the deposited data

Results flagged for a closer look

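For Flt1 and Cdh5 the IP to Input difference itself differed between the genotypes by the authors' interaction test. IP minus Input of Flt1 was -1.53 in KO and -0.04 in WT, an interaction of 1.49 (WT minus KO; Wald test, adjusted p = 0.00861, authors' deposited table). For Cdh5 it was 0.57 in KO and 1.91 in WT, an interaction of 1.32 (WT minus KO; Wald test, adjusted p = 0.0347, authors' deposited table). Both interactions were known when the genes were chosen. Neither gene passed with the median of tested rows or the 3' UTR length trend subtracted.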

How the results depend on the processing

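No paired analysis was possible because the columns with a group label carry no replicate number, and for the same reason no library could be left out and no count model was fitted. At an adjusted p of 0.05 the rows that passed numbered 120 as deposited, 169 at the authors' threshold of 0.10, 30 with the median of tested rows subtracted, 17 with the 3' UTR length trend subtracted and 47 with every row in the adjustment. Of the 8 genes these settings passed 2, 2, 0, 0 and 1, the last being Flt1 (adjusted p = 0.0270), with Cdh5 at 0.109. Of the pathway genes they passed 5, 8, 0, 1 (Sox18) and 2 (Elk3 and Jag1). Subtracting the trend also shifts the zero point, so the 17 compare with the 30. With the median subtracted the interaction of Tie1 turned to -0.057, and no other member changed sign. For Flt1 and Cdh5, 5 of the 6 alternatives that give an adjusted p ended the call, and the other members had no call to lose. Rows lower in KO IP numbered 1288 at a difference of at least 0.5, 361 at 1 and 19 at 2, with 5, 3 and 0 of the 8 genes. Rows at least 0.5 or 2 above Input numbered 1857 and 80 in KO and 2299 and 355 in WT, and rows as far below it 1481 and 340 in KO and 1420 and 233 in WT. By mean count without division by length Flt1 stood at 1 and Pecam1 at 4 among the 8 genes. The low counts of Flt4 and Tie1 limit what their intervals can show.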
